A study of Rattus norvegicus with 20 samples.

Results

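The comparison described here sets early preneoplastic foci (EPFs) against CK-19-positive preneoplastic nodules of the rat liver, on 10 of the 20 arrays of the study (5 of each). The 10 arrays were taken by their source labels, and all genes on them were followed, each by the probe that was brightest on average over the 20 arrays. The lesions were induced by the Resistant-Hepatocyte (R-H) protocol: male Fischer rats receive one dose of the carcinogen diethylnitrosamine (DENA) and later a diet with 2-acetylaminofluorene (2-AAF), which blocks the division of normal hepatocytes, together with a partial hepatectomy (PH), so that initiated hepatocytes grow out. The animals of both groups had all 3 treatments. Laser microdissection took EPFs at 7 days from PH and 4 weeks from DENA, at about the time the 2-AAF diet ended, and nodules at 7 weeks from PH and 10 weeks from DENA, when the rats had returned to basal diet. Time after PH, the last days of 2-AAF and the stage of the lesion therefore went together and cannot be told apart.

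Several limits of the groups bear on every value below. As the study describes them, an EPF array carried RNA pooled from several foci, whereas a nodule array carried RNA of one nodule. RNA came from the livers of 4 to 5 animals, but no label ties an array to a rat. The p-values therefore measure the spread between arrays of a group, and part of it may be technical. In the main test that spread was pooled over all groups of the study, normal liver and CK-19-negative nodules included. A nodule was called CK-19-positive by staining when only a part of its area was positive, which makes it a mixture of stained and unstained hepatocytes. GSTP staining marked the preneoplastic lesions and CK-19 staining separated the nodules, so that the values of Gstp1 and Krt19 describe how the samples were chosen and were not tested as results. All 5 CK-19-positive nodules were hybridised on one chip and all 5 EPF pools were the only arrays of another, so that chip and lesion type cannot be told apart. The pools and nodules are numbered 1 to 5 as the samples were listed, and no number links one array to another.

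The levels are quantile-normalized fluorescence signals on a linear scale, and differences are given as log2 of EPFs over CK-19-positive nodules. A gene was tested when its signal was over 200 on at least 5 of the 20 arrays, which left 6102 of 13337 named genes. A gene over 200 only in EPFs, or only in CK-19-positive nodules, passed through that group alone. It could not be called lower there. It was called when limma's adjusted p was under 0.05 and the difference at least 2-fold. Calls, log2 differences and p-values rest on the signals as they stood. If a group had no array at 200 or above, 200 took its place in the printed fold only, which is then a lower bound. That bound can be under 2-fold for a called gene, and a p-value beside it belongs to the unbounded difference. Both groups held hepatocyte RNA: albumin (Alb) stood at 28085 to 36692 in EPFs and 34209.8 to 41256 in CK-19-positive nodules, and the summed signal of 13 hepatocyte markers was 290500 to 322400 and 298400 to 320400.

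Hepatocytes that enter the cell cycle switch on the enzymes of DNA synthesis first and the kinases and motor proteins of mitosis later, and in the normal adult liver nearly all of these genes are quiet. A resting male rat hepatocyte is instead known for metabolic genes, some of them under the control of the male pattern of growth hormone release, and bile duct cells are known for keratins such as CK-19 and for the adhesion protein EpCAM. The transcription factor NRF2 drives genes that make glutathione and detoxify electrophiles, and the nuclear receptor PPAR-alpha drives genes that burn fatty acids.

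In all, 376 of the 6102 genes tested (6.16%) were called. In EPFs 167 genes were higher (2.74%) and 209 were lower (3.43%, Krt19 among them) than in CK-19-positive nodules, and the median log2 difference over all genes was -0.01. Of the called genes, 21 were higher and 28 were lower by at least 4-fold. The 5 EPF pools and the 5 nodules did not overlap for 358 of the called genes (156 higher and 202 lower), against 2267 (37.2%) of all genes tested. The largest differences with the lower signal in EPFs were those of Ces1d, a carboxylesterase, of Cyp2c11, a male-specific cytochrome P450, and of Igfbp3, which binds insulin-like growth factors. The largest differences the other way were those of A2m, an acute phase proteinase inhibitor of the rat, of Acot1, an acyl-CoA thioesterase, and of Rrm2, a subunit of ribonucleotide reductase.

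**Figure D1:**
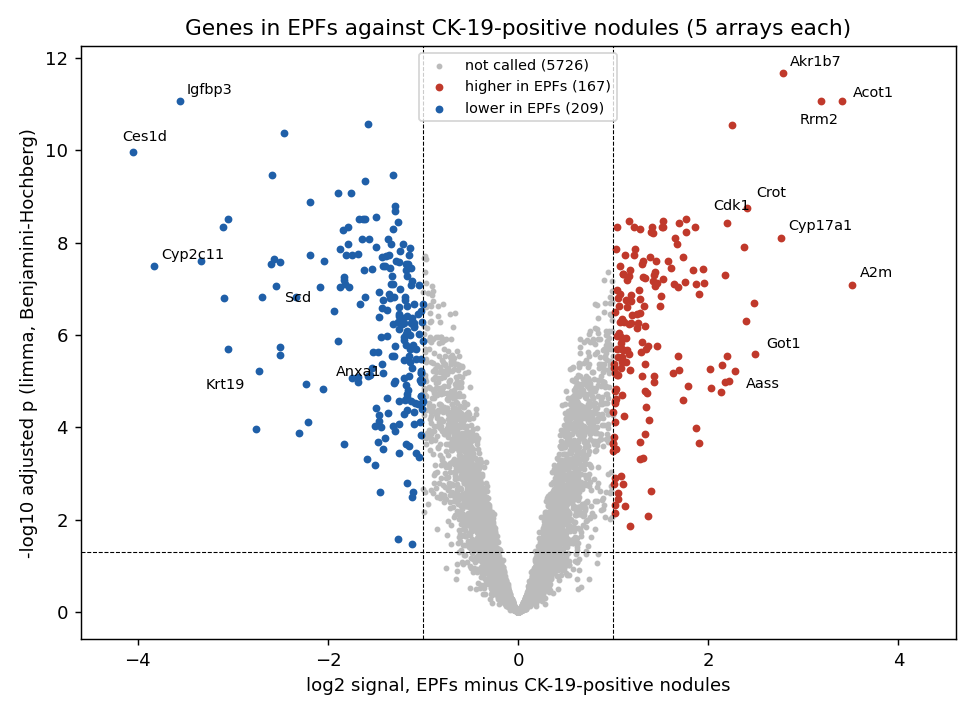
Each point is one of the 6102 genes tested, with the log2 difference in signal (EPFs minus CK-19-positive nodules) on the x axis and -log10 of limma's adjusted p on the y axis. The dashed lines mark the 2-fold difference and the adjusted p of 0.05, and 167 genes called higher and 209 called lower lie outside them.

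Cell cycle genes were the list with the largest share higher in EPFs. Of 64 genes named in a list of cell cycle and DNA replication genes, 44 were tested, and 24 were called higher (54.5%, against 2.74% of all genes) and none lower. Of the 64, 25 were under 200 on every nodule array and 5 on every EPF array. Members over 200 only in EPFs entered the test through that group and could not be called lower. The signal filter therefore partly sets the share higher and the absence of lower calls. The median log2 difference of the tested members was 1.07 and 43 of 44 lay above 0. With genes at their lower bound the median was 1.01. Without a fold threshold, 40 of the 44 (90.9%, against 23.1% of all genes) were higher at an adjusted p under 0.05 (limma). On that rule 0 were lower, and also 0 at an unadjusted p under 0.05. Rrm2, which supplies deoxynucleotides, led the list with 3425, 2226, 2265, 2322 and 3869 in EPF pools 1 to 5 and 302, 364, 298, 246 and 305 in nodules 1 to 5. The mean in normal liver was 202, below the mean of the nodules and far below the EPF pools. The difference was 9.12-fold (log2 3.19, SE 0.17, adjusted p = 8.63e-12, limma).

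The mitotic kinase Cdk1 had signals of 2211, 1445, 1598, 1425 and 2485 in the EPF pools and 366, 619.6, 326, 342 and 348 in the nodules. Its partner Ccna2, cyclin A2, had 801, 509, 532, 588 and 831 and 193, 264, 175, 173 and 194. In both genes nodule 2 was the highest of the nodules, and EPF pools 1 and 5 were the highest of the pools. The log2 differences were 2.20 (SE 0.18, adjusted p = 3.75e-09) and 1.70 (SE 0.14, adjusted p = 3.71e-09). Aurkb, the kinase of the chromosomal passenger complex, stood at 588 to 1158 in EPFs and 192 to 237 in nodules. Ube2c, which feeds the anaphase-promoting complex, had 529.8 to 911 and 187 to 214. Prc1, which bundles microtubules of the dividing spindle, had 709 to 1570.5 and 257 to 354, and Cks2, a small subunit of cyclin-dependent kinases, 1782 to 3232 and 625 to 729. For each of these 4 genes the lowest EPF pool lay above the highest nodule, with log2 differences of 1.76 to 1.86.

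Genes of DNA replication moved the same way. Pcna, the sliding clamp of DNA polymerase, had signals of 7657, 4589.8, 5301, 5527 and 8951 in the EPF pools and 2483, 2315, 1786, 1707 and 2221 in the nodules, a log2 difference of 1.58 (SE 0.15, adjusted p = 2.49e-08). Mcm6 and Mcm2, subunits of the replicative helicase, were higher by 1.46 and 1.09 on the log2 scale. Bub1, a kinase of the spindle checkpoint, and Plk1, a mitotic kinase, were under 200 on every nodule array, and their folds were at least 2.41 and at least 1.85. Bub1 was tested through the EPF pools alone. With signals under 300 raised to 300 the calls of Bub1, Plk1 and Mcm2 were lost, and that of Mcm2 also without EPF pool 5. Some members of the list did not pass. Ccnd1, cyclin D1, which acts before DNA synthesis, had 2873 to 4757 in EPFs and 2372 to 4188 in nodules (log2 0.16, SE 0.25, adjusted p = 0.635), both above the normal liver mean of 1556. Ccnb2, cyclin B2, had a log2 difference of 0.77 and overlapping arrays, and nodule 2 (1581) exceeded 4 of the 5 pools.

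**Figure D2:**
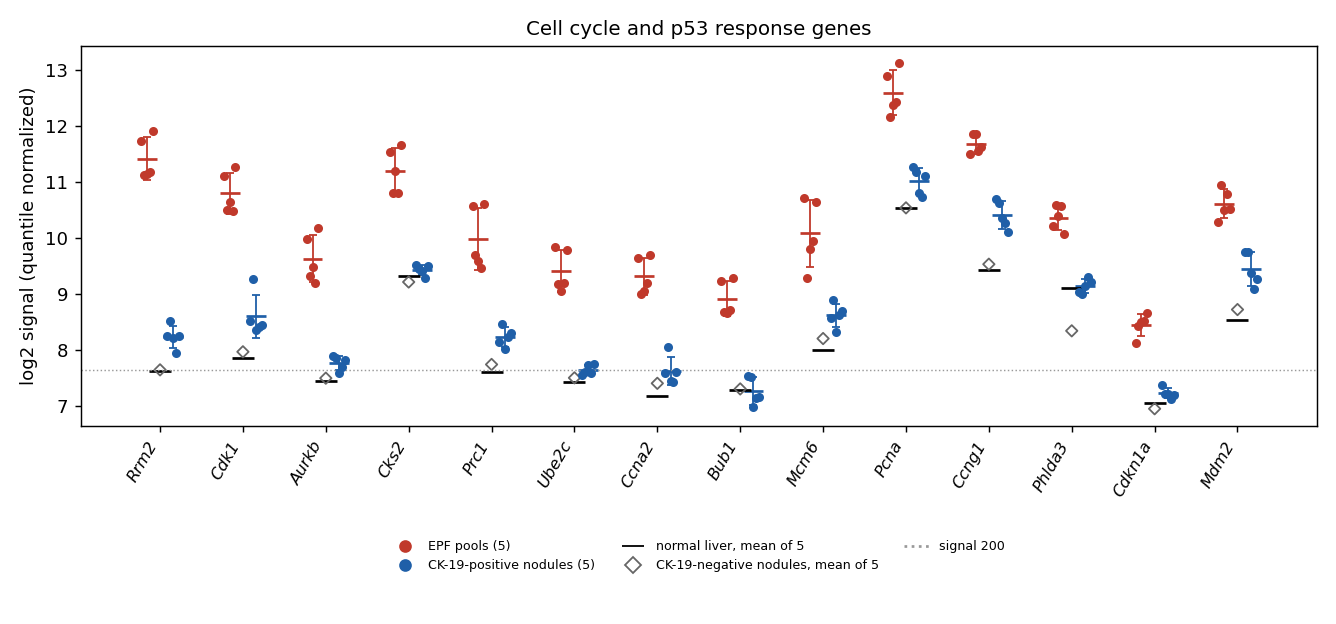
The log2 signal of 10 cell cycle genes and 4 p53 response genes is plotted for each of the 5 EPF pools and 5 CK-19-positive nodules, with the mean as a line and the SD as an error bar, and with the means of normal liver and CK-19-negative nodules. For every gene shown the lowest EPF pool lies above the highest CK-19-positive nodule, and EPF pools 1 and 5 are the highest for the cell cycle genes.

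Over the list as a whole, the median log2 signal of the 44 genes was 9.79 in EPF pool 1 and 9.72 in pool 5, and 9.04 to 9.20 in pools 2 to 4. In the nodules it was 7.95 to 8.23, the highest in nodule 2. The pools thus fell into a higher pair and a lower group of 3, and the least of the pools still exceeded the nodules. The study's own gene filter asks for a signal at least 1.5-fold from the gene's median on at least 20% of the arrays and for a median over 300. It left 12 of the 44 genes, of which 6 were called. The first criterion alone left 36 and the second alone 15.

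The promoters of the called cell cycle genes are shown because many mitotic genes are known to share a pair of short elements near the start of transcription, the cell cycle genes homology region (CHR, here the letters TTTGAA) and the CCAAT box (here the letters CCAAT). Of the 24 called genes, 18 had a window in the RefSeq promoter table of the rat build GRCr8. The windows of the 3 genes with the largest differences among these 18 are printed, the 250 bases before the start of transcription, 5′ to 3′ on the gene's strand, with CHR and CCAAT letters of either strand in capitals. That of Cdk1 is chr20:19265043-19265292 (+), that of Cks2 chr17:13727520-13727769 (-) and that of Prc1 chr1:143659231-143659480 (+).
Cdk1: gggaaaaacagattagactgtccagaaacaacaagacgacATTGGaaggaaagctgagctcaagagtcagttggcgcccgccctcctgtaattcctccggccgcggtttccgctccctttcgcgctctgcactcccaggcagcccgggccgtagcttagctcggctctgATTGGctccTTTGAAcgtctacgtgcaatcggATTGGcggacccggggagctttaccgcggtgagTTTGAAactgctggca
Cks2: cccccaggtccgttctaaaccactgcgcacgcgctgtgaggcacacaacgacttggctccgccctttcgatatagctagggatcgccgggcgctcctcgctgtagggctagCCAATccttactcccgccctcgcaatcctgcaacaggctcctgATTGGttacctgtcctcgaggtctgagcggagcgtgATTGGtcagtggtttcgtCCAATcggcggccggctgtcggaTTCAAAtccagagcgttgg
Prc1: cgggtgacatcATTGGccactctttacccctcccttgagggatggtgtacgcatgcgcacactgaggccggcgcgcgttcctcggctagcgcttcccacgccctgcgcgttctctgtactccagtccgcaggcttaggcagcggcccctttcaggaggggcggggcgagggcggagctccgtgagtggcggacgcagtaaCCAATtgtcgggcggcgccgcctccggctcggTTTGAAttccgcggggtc
Each of the 3 windows held a CHR and at least 2 CCAAT boxes, with a CHR less than 20 bases from the start. Among the 18 windows, 7 (38.9%) held TTTGAA and 12 (66.7%) held CCAAT on either strand, against 10.4% and 37.0% of the 5130 windows of genes tested and 4402 and 9416 of all 27457 windows. Of the 19 windows of cell cycle genes that were tested and not called, 6 (31.6%) held TTTGAA and 14 (73.7%) held CCAAT. The difference between called and uncalled members was not tested. A match of letters is a description and not evidence of a bound factor.

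The p53 response comprises genes induced by DNA damage. Of 13 tested, 4 were called higher and none lower (30.8%, against 2.74% of all genes), with a median log2 difference of 0.53. Without a fold threshold 7 were higher (53.8%, against 23.1% of all genes) and 3 lower (23.1%, against 24.0%). Ccng1, cyclin G1, had 2911, 3723, 3726, 3005 and 3147 in the EPF pools and 1667, 1584, 1313, 1235 and 1103 in the nodules. Its normal liver mean was 692, below both, and the log2 difference was 1.27 (SE 0.13, adjusted p = 1.06e-07). Mdm2, the ubiquitin ligase that degrades p53, stood at 1253 to 1977 and 544 to 862 (log2 1.17, adjusted p = 5.64e-07). Phlda3, an inhibitor of AKT, stood at 1074 to 1534 and 513 to 628, and here the nodules were level with normal liver (555). Cdkn1a, the p21 inhibitor of cyclin-dependent kinases, was at 277 to 405 in EPFs and under 200 on every nodule array, so that it was at least 1.74-fold higher. Among the 4 called, it was tested through the EPF pools alone, so that it could not be called lower. With signals under 300 raised to 300 its log2 difference was 0.24 and the call was lost. Other p53 targets did not follow: Gdf15, a secreted cytokine of stressed cells, had a log2 difference of -0.61 and Ddit4, an inhibitor of mTOR, -0.79, both short of 2-fold. Nhej1, a factor of DNA end joining, was at least 4.21-fold higher in EPFs (652 to 1127, against 159.7 to 192 in nodules).

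Among 25 regulators of apoptosis tested, 1 was called higher (4.0%) and 2 lower (8.0%), against 2.74% and 3.43% of all genes, with a median log2 difference of -0.08. Mcl1, which protects cells from apoptosis, had 1527 to 1952 in EPFs and 624 to 1053 in nodules (log2 1.10, adjusted p = 1.99e-06). Hrk, a pro-apoptotic BH3-only protein, was under 200 in every EPF pool and at 365 to 427 in nodules, at least 1.94-fold lower in EPFs. Cidea, a lipid droplet protein of the CIDE family, had 867 to 1102 and 2155 to 2962 (log2 -1.43, adjusted p = 2.05e-08).

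**Figure D3:**
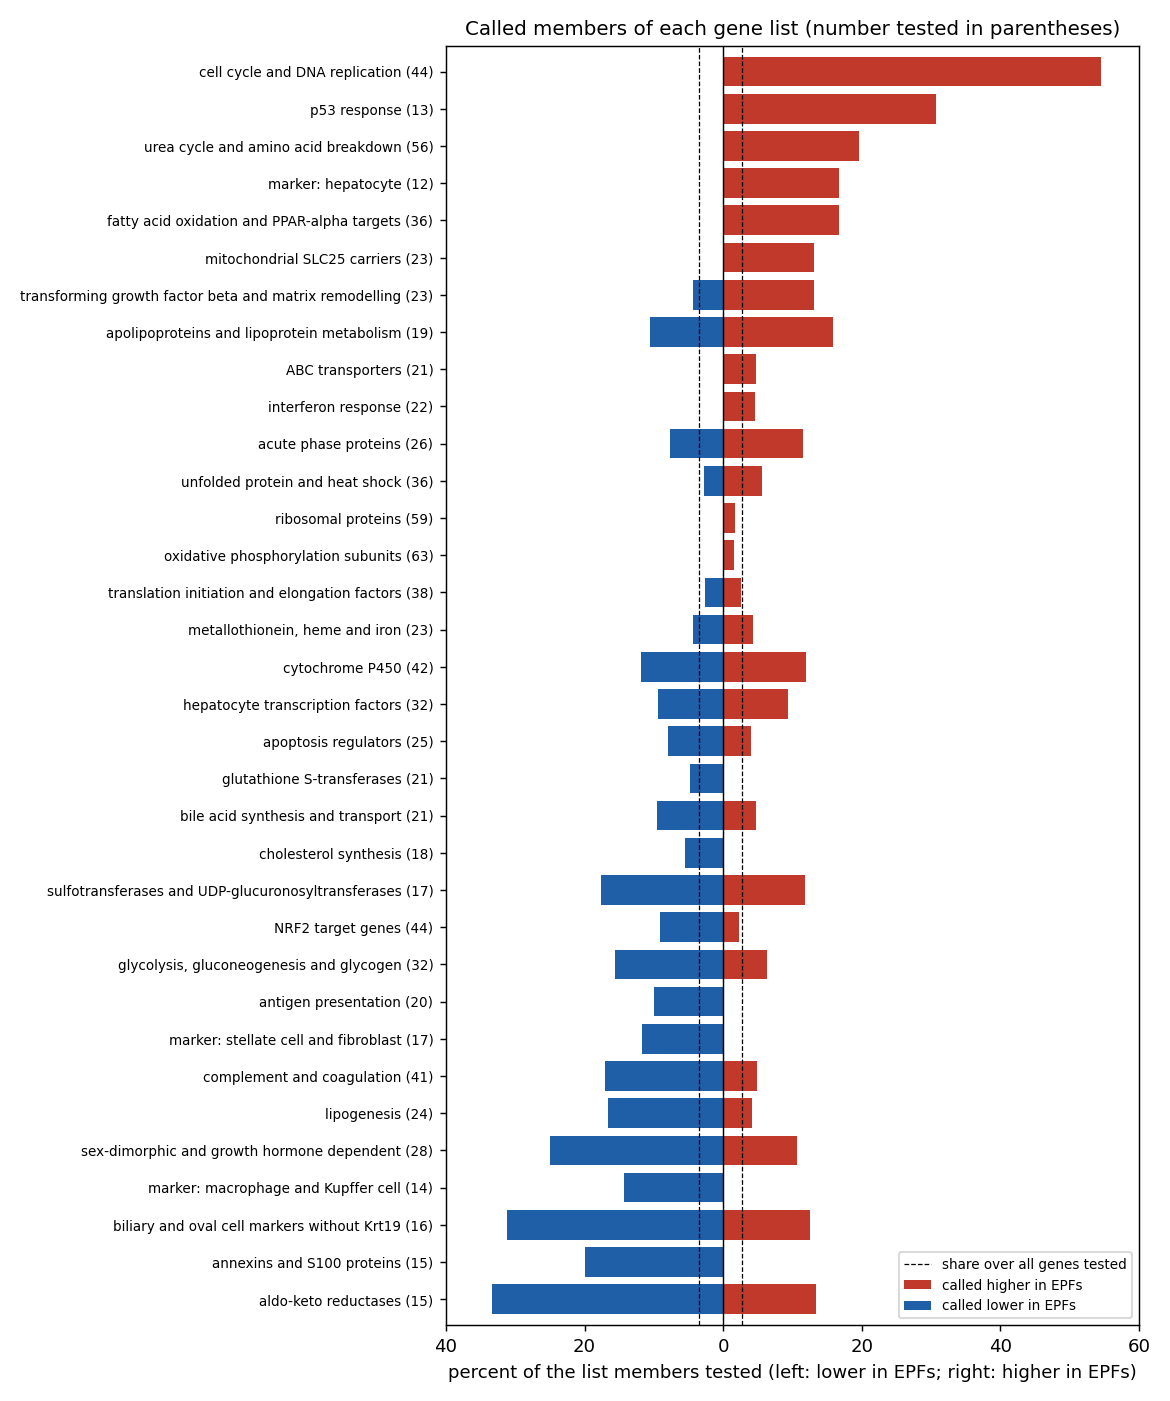
For each gene list with at least 10 tested members and at least 1 called, the bars give the percent of tested members called higher (right) or lower (left) in EPFs, and the dashed lines the shares over all 6102 genes (2.74% and 3.43%). The cell cycle list stands at 54.5% higher, and aldo-keto reductases at 33.3% lower. Biliary and oval cell markers, drawn without Krt19, stand at 31.2% lower and 12.5% higher.

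The liver disposes of amino acid nitrogen through transaminases and the urea cycle, and 11 of 56 tested genes of these pathways (19.6%, against 2.74% of all genes) were higher in EPFs and none lower, with a median log2 difference of 0.25, or 0.21 with genes at their lower bound. Without a fold threshold 24 were higher and 12 lower, against 23.1% and 24.0% of all genes, so that the share lower was no larger than that background. Got1, the cytosolic aspartate transaminase, had 19504, 19708, 11946, 4256 and 19504 in the EPF pools and 2819.9, 1329, 2972, 3030.2 and 1990.2 in the nodules. EPF pool 4 was the exception among the pools, close to the normal liver mean of 4192, while the other pools were above every normal liver array (3015 to 5837) and 4 of the 5 nodules were below all of them. The log2 difference was 2.49 (SE 0.33, adjusted p = 2.54e-06). Aass, which opens lysine breakdown, had 3453, 3670.2, 2105, 1542 and 1972 and 479.8, 431, 718, 549 and 364 (log2 2.28, SE 0.32, adjusted p = 6.09e-06). Tat, which degrades tyrosine and is induced by glucocorticoids, had 5462 to 12234 in EPFs and 1594 to 3665 in nodules, with a normal liver mean of 7099 that lay within the range of the pools.

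Several genes of the urea cycle were among them. Cps1, which makes carbamoyl phosphate, had 18993, 20279, 17189, 14840.0 and 20067 in the EPF pools and 5568, 12139, 7671, 5462 and 5434 in the nodules (log2 1.40, SE 0.35, adjusted p = 0.00243). Nags, which makes the activator of CPS1, stood at 1993 to 2587 and 562 to 1043 (log2 1.52, adjusted p = 6.06e-08), and the EPF pools were within the range of normal liver (1996 to 3120.1) except for pool 3, just below it. Slc25a15, the mitochondrial ornithine carrier, was higher by 1.43 (adjusted p = 1.05e-05). Asl, which splits argininosuccinate, and Agxt, the peroxisomal alanine-glyoxylate transaminase, passed the test with log2 differences of 1.10 and 1.02, but their arrays overlapped. The call of Agxt was lost without any one of nodules 1, 2 and 5 and EPF pools 1 and 5, and that of Asl without EPF pool 2 or 5. Leaving out each array in turn gave 8 to 13 called genes for this list.

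Genes that burn fatty acids or are targets of PPAR-alpha were also higher in EPFs: 6 of 36 tested (16.7%, against 2.74% of all genes) and none lower, with a median log2 difference of 0.26, or 0.19 with genes at their lower bound. Without a fold threshold 17 were higher and 5 lower, against 23.1% and 24.0% of all genes. Acot1, which releases free fatty acids from acyl-CoA, had 1291, 2605, 1668, 1034 and 917 in the EPF pools and was under 200 in all nodules and in normal liver (122 to 157). It was thus at least 6.99-fold higher in EPFs than in CK-19-positive nodules (adjusted p = 8.63e-12). Acot1 was tested through the EPF pools alone, so that it could not be called lower. Crot, the peroxisomal carnitine octanoyltransferase, had 3134, 3992, 3322, 2076 and 3040.5 and 585, 595, 519, 726 and 468 (log2 2.41, SE 0.18, adjusted p = 1.78e-09). Here the EPF pools were near normal liver (mean 3067) and the nodules far below it. Cyp4a3, a fatty acid omega-hydroxylase, had 6936 to 11485 in EPFs and 974 to 4097 in nodules, and its relative Cyp4a2 1776 to 2475 and 249 to 879. The nodules spread over more than 3-fold for both, with nodule 4 the highest and nodule 1 the lowest. These 2 genes are close copies, and a probe may read both.

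Cpt1a, the carnitine palmitoyltransferase that admits long-chain fatty acids to mitochondria, was higher by 1.05 (adjusted p = 0.00267). Its call was lost without any one of nodule 3 and EPF pools 3 and 4. Acsl5, an acyl-CoA synthetase, was higher by 1.14 (adjusted p = 1.79e-07). Angptl4, a secreted inhibitor of lipoprotein lipase, had a log2 difference of 1.28, but nodule 4 (324) was level with EPF pool 5 (324), and with the mean of its probes the difference was 0.58 and not called. Cyp17a1, a steroid hydroxylase, was also among the largest differences, with 2102, 2195, 1487, 815 and 1419 in EPFs and 183, 175, 226, 344 and 222 in nodules (log2 2.76, SE 0.23, adjusted p = 7.83e-09). Cyp8b1, which makes cholic acid, stood at 5189.6 to 6586 and 606 to 2928, both below the normal liver mean of 10149.5. Cyp1a2, which activates arylamines such as 2-AAF, had 1371 to 3446 and 397 to 1279, with a normal liver mean of 6439.8. The 42 cytochromes P450 tested on their list moved both ways, with 5 called higher and 5 lower (11.9% each, against 2.74% and 3.43% of all genes). That list left out Cyp3a23-3a1, which had 8244 to 10970 in EPFs and 805 to 3981 in nodules (log2 2.40, adjusted p = 4.93e-07). Its normal liver mean was 19151.

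**Figure D4:**
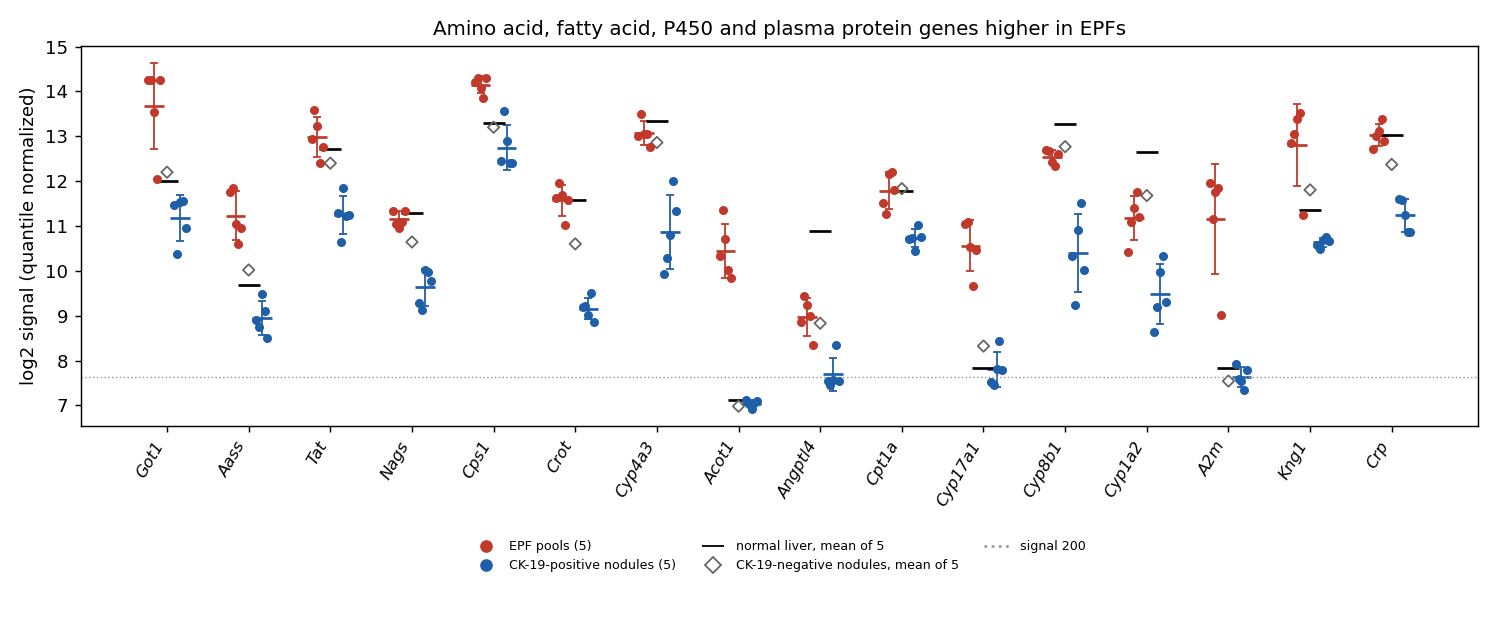
The log2 signal of 16 genes higher in EPFs is plotted for each EPF pool and CK-19-positive nodule, with the mean as a line, the SD as an error bar and the means of normal liver and CK-19-negative nodules. EPF pool 5 lies apart for A2m and Kng1 and pool 4 for Got1, and for Crot, Tat, Nags and Cpt1a the EPF pools surround the normal liver mean while the nodules lie below it.

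The plasma proteins of the acute phase did not move together: of 26 tested, 3 were higher (11.5%, against 2.74% of all genes) and 2 lower (7.69%, against 3.43%) in EPFs, with a median log2 difference of 0.00. A2m, alpha-2-macroglobulin, had 3969, 2297, 3465, 3707 and 521 in the EPF pools and 242, 193, 186, 162 and 223 in the nodules, with a normal liver mean of 230.0. Pool 5 was far below the other pools but above every nodule, and the log2 difference was 3.52 (SE 0.36, adjusted p = 8.09e-08). Kng1, kininogen, showed the same exception, with 7422, 8509.8, 10764, 11712 and 2423 in the pools and 1532, 1431, 1640.4, 1719.7 and 1630.3 in the nodules (log2 2.18, SE 0.32, adjusted p = 1.05e-05). Without EPF pool 5 these differences were 4.05 and 2.57. Crp, C-reactive protein, had no such exception, with 6759 to 10694 and 1876 to 3103 (log2 1.79, adjusted p = 1.29e-05). Lbp, which binds lipopolysaccharide, and Mug2, a rat relative of A2m that falls in inflammation, were lower in EPFs, by -1.45 and -1.56 on the log2 scale.

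Of 41 complement and coagulation genes tested, 2 were higher (4.88%, against 2.74% of all genes) and 7 lower in EPFs (17.1%, against 3.43%). The 7 were Cfd, C1r, Klkb1, C1qa, F12, C8g and Proc, with log2 differences of -1.53 to -1.16. C4bpb, a chain of the C4b-binding protein, and Fgl1, a fibrinogen-like protein of hepatocytes, were higher by 1.84 and 1.87. Afp, the fetal albumin of the liver, had 2461, 5960.2, 3771, 2455 and 3670.2 in the EPF pools and 613, 711, 1098, 907 and 609.6 in the nodules (log2 2.18, SE 0.21, adjusted p = 5.05e-08). Its normal liver mean of 1489 lay between the groups.

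Biliary and oval cell markers were counted without Krt19, since its staining chose the nodules. Of the other 16 tested, 5 were lower in EPFs (31.2%, against 3.43% of all genes) and 2 higher (12.5%, against 2.74%), with a median log2 difference of -0.52. Krt19, which encodes CK-19, had 371, 1118, 635, 435 and 512 in the EPF pools and 7686, 3549, 3507, 2789.7 and 2738 in the nodules, with a normal liver mean of 224. Nodule 1 stood far above the other nodules and EPF pool 2 above the other pools, and the groups did not overlap. As CK-19 staining chose the nodules, this difference (log2 -2.72) is given without a test. Epcam, an epithelial adhesion molecule found on bile ducts and liver progenitors, had 831, 1725, 1090.1, 1019.8 and 1285 and 3670.2, 2873, 2430.3, 2734 and 2231 (log2 -1.25, SE 0.20, adjusted p = 2.66e-05). Cd24, another surface protein of these cells, had 807, 1628, 1267, 798 and 1044 and 2832, 3293, 2738, 2233 and 3587 (log2 -1.44, SE 0.26, adjusted p = 9.69e-05). EPF pool 2 was the highest pool for all 3 genes.

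The annexins Anxa3, Anxa1 and Anxa5, which bind membranes in the presence of calcium, were lower in EPFs by -1.44, -1.30 and -1.01 on the log2 scale, and the call of Anxa5 was lost without any one of nodules 1 and 5 and EPF pools 4 and 5 (-0.91 without pool 5). The marker Cdh17, a cadherin of the liver and intestine, went the other way, with 1207 to 1882 in EPFs and 261 to 457 in nodules (log2 2.14, adjusted p = 1.74e-05) and a normal liver mean of 4446. Onecut1, a factor of hepatocyte and bile duct development, was also higher in EPFs (log2 1.17, adjusted p = 0.0135), but EPF pool 5 (2928) stood far above the other pools (839 to 1250.4), and without it the adjusted p was 0.0544. Spp1, osteopontin, and Krt8, a keratin of all hepatocytes, had log2 differences of 0.49 and -0.22 and were not called.

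Markers of other cell types moved in part with the biliary genes. The summed signal of 6 biliary and oval cell markers, Krt19 left out, was 2359 to 4595 in EPFs and 5664 to 7305 in nodules. That of 15 macrophage and Kupffer cell markers was 16780 to 21960 and 22740 to 33680. Of 14 tested, 2 (14.3%, against 3.43% of all genes) were lower in EPFs, C1qa (log2 -1.19) and Cd14 (log2 -1.10, under 2-fold without nodule 3). With no fold threshold 9 of the 14 (64.3%, against 24.0% of all genes) were lower and 1 higher. Stellate cell and fibroblast markers (19 genes) summed to 9645 to 18630 and 15950 to 24740. Of 17 tested, 2 (11.8%, against 3.43% of all genes) were lower, Reln (log2 -1.81) and Mgp (log2 -1.12, under 2-fold without nodule 1 or EPF pool 1). Dropping the fold threshold, 10 of the 17 (58.8%, against 24.0% of all genes) were lower and 2 higher (11.8%, against 23.1%). Leaving out each array in turn gave 1 to 3 macrophage and 1 to 4 stellate markers called lower, and background subtraction gave 4 and 8. Of 8 endothelial, 10 lymphocyte and 5 erythroid markers tested, 0 were called in limma's test with the 2-fold threshold. At an unadjusted p under 0.05 the counts were 3 higher and 1 lower, 0 and 2, and 1 and 3. On that rule 1621 of all 6102 genes were higher and 1644 lower. Of 12 neutrophil markers, 1 was tested and not called. How far macrophages or stellate cells enter the other differences was not tested. In dissected tissue, fewer cells of a type and less RNA per cell cannot be told apart. Antigen presentation genes pointed the same way, with 19 of 20 below 0, a median of -0.36 and 2 of the 20 called lower (against 3.43% of all genes), among them RT1-CE15, a class I molecule (log2 -1.27). That count was 1 to 4 when each array was left out and 6 with background subtracted.

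Sex-dimorphic or growth hormone dependent genes, a list that mixes genes of male and of female liver, were lower in EPFs in part. Of 28 tested, 7 were lower (25.0%, against 3.43% of all genes) and 3 higher (10.7%, against 2.74%). The median log2 difference was -0.10. Cyp2c11, the main P450 of the adult male rat liver, was under 200 in all EPF pools and had 1087, 2083, 4269, 4224 and 1636 in the nodules, where nodules 3 and 4 were the highest. It was at least 11.6-fold lower in EPFs (adjusted p = 3.21e-08), and both lesions were far below normal liver (27479 to 43418). The major urinary protein Mup4 had 2202, 1381, 2368, 2516 and 3037 in the EPF pools and 6809, 11307, 19371, 19869 and 10785 in the nodules (log2 -2.50, SE 0.23, adjusted p = 2.63e-08), again with nodules 3 and 4 highest. Mup4l3 was under 200 in all pools and at 256, 2094, 2091, 1859 and 663 in the nodules, at least 5.34-fold lower, and Mup5 and Mup4l4 were lower by -2.08 and -2.60. The Mup genes are near-identical copies, so that their probes may read one another and the split between them is uncertain.

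Hsd17b2, which inactivates sex steroids, had 1584 to 8414 in EPFs and 17342 to 20921 in nodules (log2 -2.30, adjusted p = 0.000134). Car3, a carbonic anhydrase of male liver, had overlapping arrays (log2 -1.26, adjusted p = 0.0256), and its call was lost without any one of nodules 3 and 4 and EPF pools 1 and 2, where the adjusted p was 0.0711 to 0.0823. Obp3, a lipocalin like the Mup proteins, was called at an adjusted p of 0.033, and leaving out an array other than nodule 1, nodule 5 or EPF pool 4 ended the call. The female-specific Cyp2c12 did not differ past the threshold: 10079 to 15771 in EPFs and 9344 to 15967 in nodules (log2 -0.06, SE 0.36, adjusted p = 0.909), both well above the mean of 838 in the livers of normal males. Sult2a6, a hydroxysteroid sulfotransferase, was higher in EPFs, with 7263 to 10427 against 1109.7 to 2529.5 (log2 2.38, adjusted p = 1.24e-08). The other members of the list called higher were Cyp4a2 (log2 2.22, adjusted p = 9.97e-06) and Onecut1, both described above.

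Igfbp3, which binds insulin-like growth factors in plasma, had 367, 394, 399, 352 and 294 in the EPF pools and 5175, 6090.3, 3545, 3789 and 3195 in the nodules. Normal liver had a mean of 1215, so that EPFs lay below it and nodules above it, and the log2 difference was -3.56 (SE 0.19, adjusted p = 8.63e-12). Ces1d, with the largest log2 difference of the 6102 genes, had 642, 547, 1147, 1543 and 1166 and 15899.8, 19975, 14174, 13959 and 14407 (log2 -4.05, SE 0.25, adjusted p = 1.08e-10), with a normal liver mean of 8427 nearer to the nodules. Ces1d belongs to a family of close copies. Serpina3c, a serine proteinase inhibitor, had 2103 to 8391 in EPFs and 25542 to 37124 in nodules, and EPF pool 5 was the highest pool.

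The synthesis of fatty acids showed 4 of 24 genes lower in EPFs (16.7%, against 3.43% of all genes) and 1 higher (4.17%, against 2.74%), with a median log2 difference of -0.07. Scd, the stearoyl-CoA desaturase of liver, had 4181, 1742, 6236, 8134 and 5068 in the EPF pools and 22996, 26428, 24330.2, 28251 and 29939.8 in the nodules (log2 -2.54, SE 0.26, adjusted p = 8.78e-08). The nodules were level with normal liver (mean 29803) and the pools were not, and pool 2 was the lowest. Thrsp, a lipogenic protein induced by thyroid hormone, spread widely among the pools (2464, 1462, 6836, 10391 and 5104), and EPF pool 4 exceeded nodule 2 (nodules 8995 to 21031; log2 -1.83, adjusted p = 0.000232). Acly, which makes cytosolic acetyl-CoA, had 920.3 to 1346 in EPFs and 1572 to 3412 in nodules, the lowest of which was nodule 2. Scd2, a second desaturase, was called with all arrays (log2 -1.07), but nodule 1 (2692) stood apart and without it the difference was -0.80, under 2-fold. Srebf1, a transcription factor that drives lipogenic genes, did not pass (log2 -0.90, adjusted p = 0.00268). Agpat2, which makes phosphatidic acid, was higher by 1.07.

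Of 32 genes of glycolysis, gluconeogenesis and glycogen, 5 were lower (15.6%, against 3.43% of all genes) and 2 higher (6.25%, against 2.74%), and leaving out each array gave 0 to 2 higher. Pklr, the pyruvate kinase of liver, had 226 to 365 in EPFs and 658 to 1464 in nodules (log2 -1.88, adjusted p = 8.96e-08), both below normal liver (mean 2909.7). Pck1, the first enzyme committed to gluconeogenesis, went the other way, with 9847 to 14886 and 3261 to 9590.2 (log2 1.08, adjusted p = 0.00111). Its call was lost without nodule 2 (0.85) or nodule 5. The lower genes besides Pklr were Ppp1r3b and Gbe1 of glycogen synthesis, Pc, pyruvate carboxylase, and Gpi, glucose phosphate isomerase. The call of Gpi was lost without any one of nodules 2, 4 and 5 and EPF pool 3.

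Targets of NRF2 included genes far above normal liver in both lesions. Of 44 tested, 4 were called lower in EPFs (9.09%, against 3.43% of all genes) and 1 higher (2.27%, against 2.74%). The median log2 difference was -0.34 and 35 lay below 0. Without a fold threshold, 17 (38.6%) were lower, against 24.0% of all genes. Gclc, the catalytic subunit of the enzyme that starts glutathione synthesis, had 17493, 7841, 13628, 14988 and 18413 in the EPF pools and 32809.8, 37745, 31219, 29939.8 and 26901 in the nodules. Normal liver had a mean of 2381, far below both, and the log2 difference was -1.18 (SE 0.23, adjusted p = 0.000232). Gclm, its modifier subunit, and Ptgr1, a prostaglandin reductase, were lower in EPFs by -1.04 and -1.16. EPF pool 2 was the lowest pool for these 3 genes, and without it Gclc (-0.98) and Gclm (-0.87) were under 2-fold and 2 genes of the list were called lower, whereas without EPF pool 4 there were 7. The call of Gclm was also lost with the chip as a random block (-0.99) and without nodule 1 or 2.

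Aldh3a1, an aldehyde dehydrogenase, was under 200 in all EPF pools, as in normal liver, and had 847, 1446, 333, 291 and 286 in the nodules, at least 2.54-fold lower in EPFs. Nodules 1 and 2 held most of this signal, and with signals under 300 raised to 300 the difference was -0.78 and not called. Nqo1, a quinone reductase, was 4413 to 9658 in EPFs and 11025 to 16356 in nodules, a log2 difference of -0.91 (adjusted p = 0.000176) that stayed under 2-fold. Akr7a3, an aflatoxin aldehyde reductase, and Akr1b8, an aldose reductase-like enzyme, had log2 differences of -0.11 and -0.44 and did not pass, with normal liver means of 660.2 and 164 far below both lesions. Gstp1, the gene of the GSTP marker, had 42071 to 44883 in EPFs and 41256 to 43418 in nodules by its brightest probe, near the top of the scale, where 2 EPF arrays held the highest value of the normalization. A difference there cannot be measured by that probe. Another, dimmer probe of Gstp1 had means of 10837 in EPFs and 16693 in nodules (log2 -0.64). This is given without a test, since GSTP staining marked the lesions. A further probe of the gene read near background in both groups (means of 135 and 136).

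Aldo-keto reductases divided the groups in both directions, with 5 of 15 tested lower in EPFs (33.3%, against 3.43% of all genes) and 2 higher (13.3%, against 2.74%). Akr1c19 had 715, 823, 919.7, 618 and 649 in the EPF pools and 7671, 15899.8, 3655, 5635 and 3949.8 in the nodules, nodule 2 the highest (log2 -3.10, SE 0.33, adjusted p = 1.60e-07), and the pools were level with normal liver (mean 635). Akr1b7 was the reverse, with 1279.8, 843, 918, 1160.3 and 1338 in the pools and all nodules and normal livers under 200, at least 5.45-fold higher in EPFs (adjusted p = 2.13e-12). Akr1b7 was tested through the EPF pools alone, so that it could not be called lower. The Akr1c genes are close copies, and their probes may share signal.

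**Figure D5:**
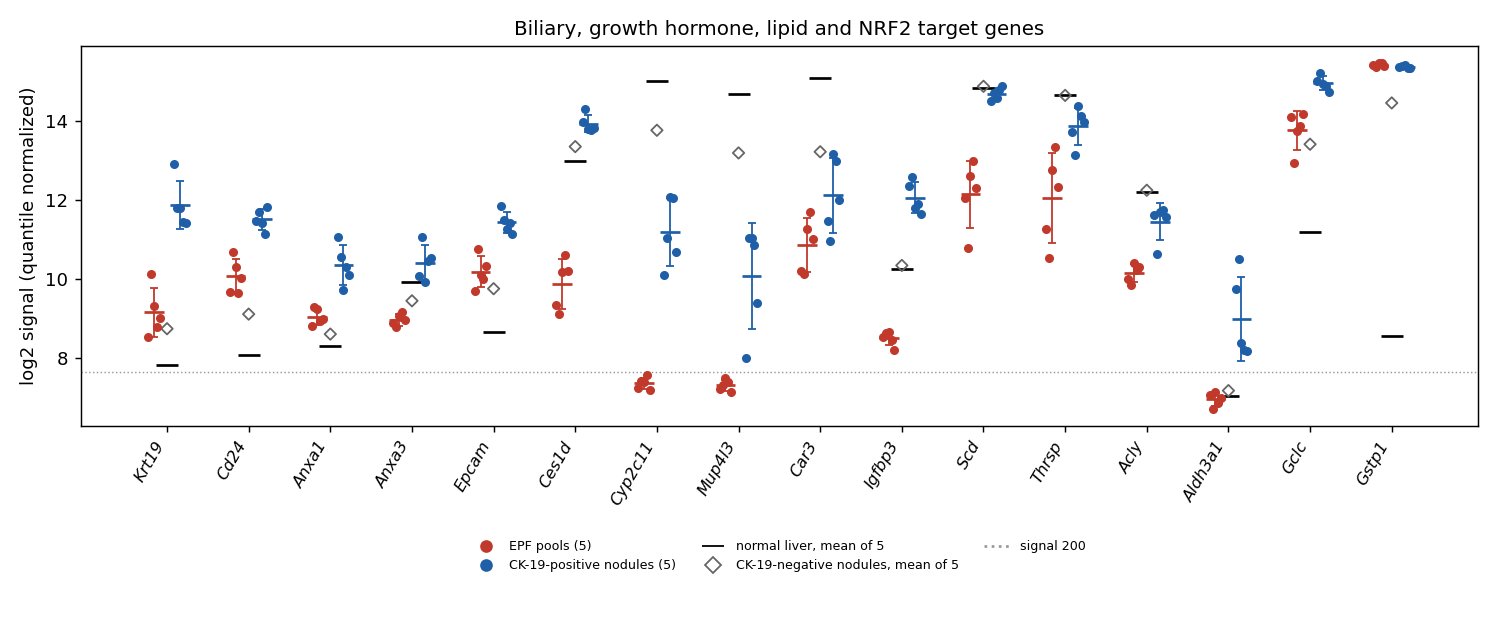
The log2 signal of 16 genes is plotted for each EPF pool and CK-19-positive nodule, with the mean as a line, the SD as an error bar and the means of normal liver and CK-19-negative nodules. All but Gstp1 were called lower in EPFs or, for Krt19, are shown without a test, and Cyp2c11, Mup4l3 and Aldh3a1 lie below the signal of 200 in every pool.

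Several of the largest differences stood outside these lists. Pcp4, a calmodulin regulator known from neurons, had 614, 294, 494, 473 and 808 in the EPF pools and 5649, 2587, 7231, 4833 and 6955 in the nodules (log2 -3.33, SE 0.31, adjusted p = 2.44e-08). Ctse, cathepsin E, an aspartic proteinase, had 212 to 283 in EPFs and 1187 to 3073 in nodules, and Wfdc2, a secreted proteinase inhibitor of epithelia, 483 to 648 and 2664 to 4455. Defb1, an epithelial beta-defensin, had 857 to 1609 and 8089 to 12139, with a normal liver mean of 139.7 below both. Ctrc, a chymotrypsin of the pancreas, was under 200 in all EPF pools and at 723, 854, 2098, 1153 and 490.2 in the nodules, at least 4.7-fold lower in EPFs. Mmp12, a metalloproteinase of macrophages, had 158 to 329 and 555 to 2252 (log2 -2.23, adjusted p = 1.13e-05), highest in nodules 1 and 2, whereas the macrophage marker C1qa was highest in nodules 2 and 5. On the other side, Nnmt, which methylates nicotinamide, had 3858 to 12830.0 in EPFs and 782 to 2392 in nodules (log2 2.48, adjusted p = 2.02e-07).

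Transcription factors of the hepatocyte were split, with 3 of 32 higher and 3 lower in EPFs (9.38% each, against 2.74% and 3.43% of all genes). Foxa3 had 1175, 848, 1046, 1210.4 and 1027 in the EPF pools and 332, 316, 398, 305 and 309 in the nodules (log2 1.67, SE 0.15, adjusted p = 1.09e-08), with the pools near normal liver (mean 952). Cebpb was higher by 1.03, and its call was lost without nodule 4 or EPF pool 2, at 0.98 and 0.99. Nr0b2, the repressor SHP of bile acid signalling, was under 200 in every pool and at least 2.59-fold lower, and Nr1i3, the xenobiotic receptor CAR, was lower by -1.30 (adjusted p = 1.74e-06). Bhlhe40, a repressor tied to the clock, was lower by -1.17. Atf4, a factor of the amino acid response, and its target Trib3, a pseudokinase, were higher by 1.10 and 1.87 (adjusted p = 1.23e-06 and 7.90e-08). Trib3 had 456 to 1366 in EPFs and 189.7 to 264 in nodules. Of 36 unfolded protein and heat shock genes tested, these 2 were called higher (5.56%, against 2.74% of all genes). Only Cryab (log2 -1.16) was called lower (2.78%, against 3.43% of all genes), and the median log2 difference of that list was -0.01.

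In several large complexes more genes lay above 0 than below it, nearly all by less than 2-fold. Of 59 ribosomal protein genes tested, 54 lay above 0, with a median log2 difference of 0.29, and 1, Rpl5, was called (log2 1.40). Of 63 subunits of oxidative phosphorylation, 50 lay above 0, with a median of 0.29, and 1, Ndufab1, an acyl carrier protein of complex I, was called (log2 1.16). Without a fold threshold, 28 (47.5%) and 30 (47.6%) of these genes were higher, against 23.1% of all genes. Of 38 proteasome subunits 14 (36.8%) were higher on that rule and 5 (13.2%) lower, and of 38 translation factors 17 (44.7%) and 5 (13.2%), against 24.0% of all genes lower.

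The arrays within a group were alike. The median SD of the log2 signal over the 6102 genes was 0.136 among EPF pools and 0.166 among CK-19-positive nodules, and it was larger among the nodules for 3806 genes and among the pools for 2296. The pools averaged several foci and the nodules did not, so that the 2 spreads are not of the same kind.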

How the data were processed

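Gene expression was measured on Illumina RatRef-12 arrays (1 colour, biotin-labelled RNA), with 5 arrays for each of 4 groups: normal liver, EPFs and nodules with or without CK-19. The authors loaded the arrays into BeadStudio 3.0.19.0 (named in the submitters' processing notes) and BRB Array Tools 4.4.0 and applied quantile normalization. The deposited intensities are linear, with no background step stated, and all arrays hold nearly the same sorted values, so that total signal says nothing of depth and precision rests on 5 arrays a group. A table before normalization has 40 columns whose names match no sample, and it was not used here. Quantile normalization assumes a common distribution, and the background left in the signals compresses the differences of dim genes.

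Of 22523 probes, 13793 were named with 1 gene by the platform annotation (13337 genes) and 8730 were unnamed, and 13752 matched the rat gene table. Group means of the log2 intensities of all 20 arrays were estimated with limma 3.58.1 under R 4.3.3 (lmFit, then eBayes), with Benjamini-Hochberg adjustment over 6102 genes, and the script was tested on simulated data. Plots came from matplotlib 3.10.9 under Python 3.11.15. The comparison and the 47 gene lists were chosen with earlier results of these data known, so that no list counts as independent evidence, and lists are described by counts and medians with no test of their own. Genes named were the 15 largest non-overlapping calls in each direction, the 4 largest calls of each list in each direction, Krt19, Gstp1 and called genes that the paper prints. Some genes picked by this rule, such as Ugt2b7 and Akr1c13, are counted among the named genes but not described above. A further 28 were chosen after their values were seen: Acsl5, Agxt, Akr1b8, Akr7a3, Alb, Asl, Bub1, C8g, Ccna2, Ccnb2, Ccnd1, Cpt1a, Cyp2c12, Ddit4, F12, Gdf15, Gpi, Krt8, Mcm2, Mcm6, Nqo1, Pcna, Plk1, Prc1, Proc, Spp1, Srebf1 and Ube2c. Alternatives were other filters, offsets, probe summaries and centring, the 10 arrays alone, the chip as a random block, other tests and each array left out in turn. The signal filter of 150 was added after seeing the data.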

Additional observations from a re-analysis of the deposited data

Results flagged for a closer look

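Among the genes named, 330 sets of 5 arrays (a gene within one type of lesion) were searched for one array whose gap to the nearest other exceeded 0.71 of the whole log2 range of the group, and 15 such arrays were found. Chance alone gives about 1 in 20.

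In the EPFs, pool 5 was low for A2m (521, the next pool 2297) and Kng1 (2423, the next 7422) and high for Car2, a carbonic anhydrase (6922, the next 4495). Pool 4 was high for Cidea (1102, the next 912) and RT1-CE15 (691, the next 545), and pool 2 was low for Akr7a2, an aldehyde reductase (604, the next 803).

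In the CK-19-positive nodules, nodule 2 was high for Cdk1 (619.6, the next 366), Ccna2 (264, the next 194) and Cryab, a small heat shock protein (1170.3, the next 848), and low for Acly (1572, the next 3020.1) and Nr0b2 (296, the next 540.1). Nodule 1 was high for Krt19 (7686, the next 3549) and Scd2 (2692, the next 1141). Nodule 4 was high for Angptl4 (324, the next 191) and low for Akr7a3 (14696, the next 20809).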

How the results depend on the processing

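The counts of 167 genes higher and 209 lower in EPFs stayed within 1.5 times except in 2 settings. With the 10% point of all values (128) subtracted as background they were 438 and 488, since subtraction widens the differences of dim genes, and with no fold threshold they were 1409 and 1464. The other settings gave 118 and 185 (the study's filter, with 1320 genes) up to 173 and 208 (chip as a random block). The unmoderated Student's test, which the methods name among their general statistics and not for the arrays, gave 166 and 207 after adjustment with the 2-fold threshold, and 3483 genes passed 0.05 before adjustment and without that threshold. Leaving out each array in turn gave 159 to 185 higher and 195 to 226 lower.

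For the lists, the study's filter left 6 cell cycle genes called higher of 12 tested. Background subtraction gave 17 genes higher of the urea cycle and amino acid breakdown. With no fold threshold 23.1% of all genes were higher and 24.0% lower. On that rule 40 of 44 cell cycle genes were higher and 0 lower. For the urea cycle and amino acid breakdown 24 of 56 were higher and 12 lower, and for fatty acid oxidation 17 of 36 and 5. Of 28 growth hormone dependent genes 4 were higher and 11 lower. Of 16 biliary markers without Krt19, a list chosen after seeing the data, 5 were higher and 8 lower. Leaving out each array gave 21 to 27 higher for the cell cycle, 8 to 13 for amino acid breakdown and 5 to 7 for fatty acid oxidation. It gave 5 to 7 lower for growth hormone dependent genes and 4 to 5 lower for biliary markers without Krt19.

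Of 152 named genes that were called, 116 kept the call under each of the 25 settings in which they were tested, 25 lost it in at least 1 of the 10 fits without one array, and 0 changed direction. The study's filter did not test 27 of them. Genes that were not called changed sign: Gstp1 (0.05) with the mean of its probes (-0.20) and with the chip as a random block (-0.000739), and Cyp2c12 (-0.06) with the chip as a random block (0.0289), and without each array in turn it ranged from -0.18 (without nodule 3) to 0.029 (without EPF pool 1), above 0 also without nodule 5 (0.01) and EPF pool 5 (0.01). No paired analysis was possible because replicate numbers in the labels do not vary within a group and no animal is named. Signals near background and the top of the scale limit what these arrays can measure.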
